A study of Bos taurus with 4 samples.

Results

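Heterotrimeric G proteins and the RGS proteins that limit their activity were followed in bovine chromaffin cells treated with PACAP (pituitary adenylate cyclase-activating polypeptide), set against control cells. A clone of the array belonged to the group when its platform annotation gave a single mouse symbol of a G protein alpha (Gna), beta (Gnb1 to Gnb5) or gamma (Gng) subunit, or of an Rgs gene followed by a number. This rule gave 82 of 35960 library clones, for 42 of 11835 named genes: 30 alpha clones of 13 genes, 8 beta clones of 5 genes, 18 gamma clones of 10 genes and 26 Rgs clones of 14 genes. The rule used no expression value, but the group was taken up with earlier results of these data known. All 82 annotation entries were found on the arrays, and all 42 symbols name a gene of the bovine RefSeq annotation (ARS-UCD2.0). The rule leaves out the Gs alpha subunit, through which the PACAP receptor raises cyclic AMP: 5 entries carry the joined symbols of Gnas and its antisense gene, and 1 carries those of Mppe1 and Gnal, so they were not named here. The Rgs class includes Rgs7bp and Rgs9bp, which are membrane anchors of RGS proteins and not RGS proteins themselves.

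Chromaffin cells are the catecholamine-secreting cells of the adrenal medulla. Treatment was 6 h with 100 ng/ml PACAP at 37 C, and the control cells have no treatment in the labels. Total RNA of treated cells carried Cy5 and that of control cells Cy3, and both were hybridised to 1 array of mouse cDNA clones for each of 4 biological repeats. No array had its dyes exchanged, so the dye and the treatment cannot be told apart, and the bovine RNA met mouse sequence. The labels do not say whether the repeats came from separate animals, so p-values measure the spread between these 4 arrays, which may be partly technical, and their number limits the precision.

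Heterotrimeric G proteins consist of a GTP-binding alpha subunit and a beta-gamma pair. A receptor makes the alpha subunit exchange GDP for GTP, and both parts then act on effectors such as adenylyl cyclase, phospholipase C beta and ion channels. RGS proteins speed the hydrolysis of GTP by alpha subunits of the Gi and Gq families and so shorten the signal. In chromaffin cells, beta-gamma subunits of Gi and Go proteins are known for holding back voltage-gated calcium channels, and the transcripts of some Rgs genes, Rgs2 among them, are known to be induced by cyclic AMP in other cells.

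Values are log2 ratios of PACAP over control after loess normalisation within each array, so 1 is a doubling in PACAP cells. A spot counted as above background when its signal exceeded 2 SD of the local background, and 81 of the 82 clones were tested, 77 with values on 4 arrays and 4 on 3. Median spot signals of the group, after background subtraction, were 613.6, 359.0, 161.7 and 323.0 in PACAP cells of repeats 1 to 4, against 388.8, 259.4, 150.3 and 746.4 in control cells. Of the 82 clones, 81, 82, 79 and 76 were above background in PACAP cells on repeats 1 to 4, against 69, 56, 41 and 79 in control cells. Control signal was therefore the limiting side on repeats 2 and 3. Repeat 4 stood apart over the whole array: its log2 ratios correlated with those of the others at -0.128 to -0.00788 across clones, whereas the pairs among repeats 1 to 3 reached 0.232 to 0.385.  Of 22 chromaffin marker genes, 14 were measured, all above background in control cells on at least 1 array and 9 on all 4, among them Th, Ddc, Chga, Chgb and Penk; Dbh and Pnmt were not analysed here. The tissue label reads brain.

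No G protein or Rgs clone passed the threshold. With limma and Benjamini-Hochberg adjustment over all 35110 clones tested, 0 clones of the array (0%) and 0 of the 81 had an adjusted p under 0.05, and the lowest adjusted p of the group was 0.454. At an unadjusted p under 0.05 there were 6 of 81 clones (7.41%), all lower in PACAP cells, against 10.4% of all clones (3.92% higher and 6.46% lower). The share on the lower side was thus close to the background. Which clones of the whole array fell under 0.05, and on which side, depended on the processing. Trend and robust moderation left every log2 ratio as it was and changed only the variances used in the test. With it 912 clones were under 0.05, 909 higher and 3 lower, and 0 of the 81. In the authors' deposited log2 ratios, centred on each array's median, 431 were higher and 4156 lower. In those deposited ratios the group's share was 15 of 81 (18.5%), above the 13.1% of all clones. The level of the deposited ratios differed from that of the scanner signals, as given with the processing below. Leaving out repeats 1, 2, 3 and 4 in turn gave 7, 3, 2 and 10 of the 81 (8.64%, 3.7%, 2.47% and 12.3%), beside 8.03%, 6.11%, 5.22% and 14.7% of all clones, with 0 adjusted calls each time. The means of 63 of the 81 clones lay within 0.5 of 0, beside 74.4% of all clones. The unadjusted 95% interval of a clone had a median half-width of 0.64, and much larger means than this did not pass the adjusted threshold with 4 arrays.

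The alpha, beta, gamma and Rgs classes are compared here by the brightest tested clone of each gene. Beta genes were the lowest class on every array: the median of the 5 genes (4 on repeat 1, where Gnb5 had no spot) was -0.88, -0.63, -0.54 and -0.33 on repeats 1 to 4. The 13 alpha genes had medians of -0.26, -0.33, -0.15 and -0.14, the 10 gamma genes 0.20, 0.09, 0.03 and -0.18, and the 14 Rgs genes -0.08, -0.01, -0.20 and 0.03. Over all named genes tested the medians were 0.02, 0.04, 0.10 and -0.01. Alpha genes thus lay below that median on 4 of 4 arrays, while gamma and Rgs genes lay on either side of it. Gna11 had no value on repeat 4 and Rgs9bp none on repeat 3, so those medians rest on 12 alpha and 13 Rgs genes. Across arrays the class medians were -0.65 for beta, -0.17 for alpha, 0.08 for gamma and -0.01 for Rgs genes, beside 0.03 for all 11740 named genes. Without repeat 4 they were -0.73 for beta, -0.11 for alpha, 0.15 for gamma and 0.11 for Rgs genes. None of these differences was tested, because the group was taken up with earlier results of these data known, although its rule used no expression value.

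**Figure D1:**
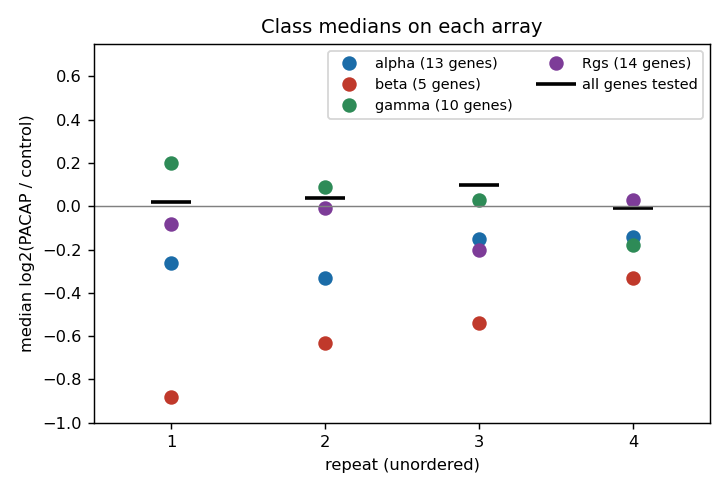
Median log2(PACAP / control) of the brightest clones of each class (vertical axis) on each of the 4 arrays (horizontal axis, in no order). Coloured points are the 4 classes and black bars all genes tested. The beta point is the lowest on every array, between -0.88 and -0.33.

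Beta subunits pair with gamma subunits and carry the signal to channels and to phospholipase C. Gnb2, a widely expressed beta subunit, gave log2 ratios of -0.68, -0.63, -0.89 and -0.41 on repeats 1 to 4, a mean of -0.65 ± 0.19 (SD, n = 4), or 0.636 of the control level. Its signals were 2778, 2079, 725.4 and 1418 in PACAP cells and 2020, 891.3, 597.5 and 4223 in control cells, before normalisation. All 4 arrays were on the lower side, and the spread between them was small, but the limma adjusted p was 0.454 (unadjusted p = 0.0241, 95% interval -1.20 to -0.11). Gnb4, which is close in sequence to Gnb1, had -0.84, -1.02, -0.54 and -0.18 for its brighter clone, a mean of -0.65 ± 0.37 (limma adjusted p = 0.461). The other Gnb4 clone had 0.39, -0.81, -0.27 and -0.02, and its control signal cleared background on 2 arrays, so it gives no uniform direction.

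Gnb1, the most studied beta subunit and a partner of many alpha subunits, was read by 3 clones that did not move together. The brightest had -0.93, -0.27, -0.39 and -0.43 (mean -0.50 ± 0.29, limma adjusted p = 0.494), lower on all 4 arrays. The other 2 clones had means of 0.28 ± 0.54 and 0.36 ± 0.42, each higher on 3 of 4. Gnb3, the beta subunit of cone photoreceptors, had -0.98, -0.14, -0.14 and -0.33 (mean -0.40 ± 0.40), with repeat 1 the lowest. Gnb5, which binds Rgs7 and its relatives in place of a gamma subunit, had no spot on repeat 1 and -0.77, -1.27 and -0.10 on the others (mean -0.71 ± 0.59, n = 3), from spots of 101, 10 and 52 pixels with control signal above background on 1 array.

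The beta genes differed in brightness. The clone of Gnb5, at -0.71, lay in the dimmest 3511 of the 35110 clones. The brightest clones of Gnb1, Gnb2, Gnb3 and Gnb4 all lay in the brightest 3511 of the 35110 clones, which held 15 clones of the group. Of these 15, 13 were lower in PACAP cells and 6 were lower on all 4 arrays, namely those of Gnb1, Gnb2, Gnb3, Gnb4, Gnaz and Gnaq. Of those 3511 clones, 47.8% were lower and 13.3% lower on all 4, with a median of 0.02. The loess curve sets the level of such spots: with each array only centred on its median, those clones had a median of 0.71, and the beta genes a median of 0.09, with Gnb1 at 0.21, Gnb2 at 0.09, Gnb3 at 0.39, Gnb4 at -0.03 and Gnb5 at -0.59. The part of the normalisation in the lower beta values was not tested beyond these values. Under the other settings run on the scanner signals the beta median stayed between -0.73 and -0.41.

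**Figure D2:**
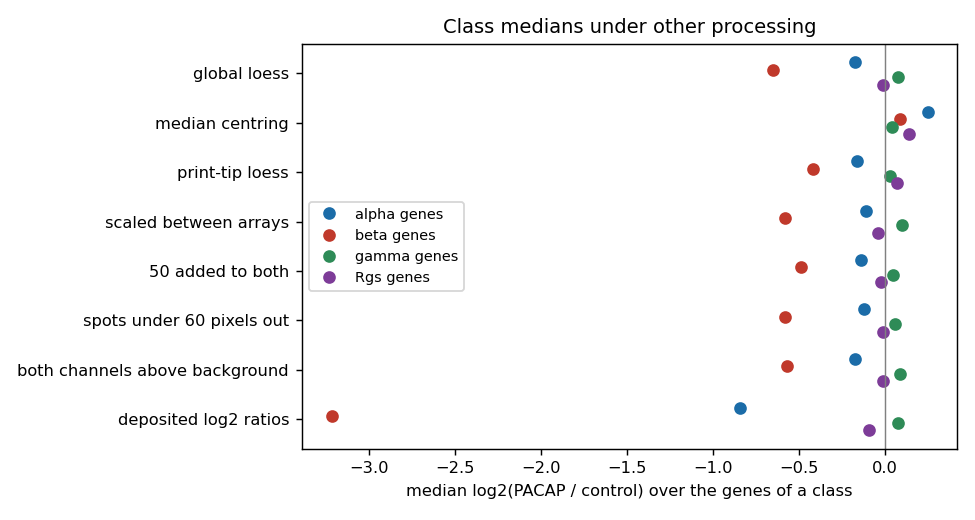
Median log2(PACAP / control) over the genes of each class (horizontal axis) under 8 ways of processing (rows), with 1 coloured point per class. Beta genes are lowest in every row except median centring, where the 4 medians lie between 0.04 and 0.25; in the deposited ratios the beta median is -3.22.

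Among alpha subunits, 10 of 13 genes had a negative mean by their brightest clone, Gna15 at 0.00 after rounding among them, beside 47.1% of all genes. Of the 13, 2 had an unadjusted p under 0.05 (Gna11 and Gnaz), beside 8.86% of all genes, and 0 passed the adjusted threshold. Under median centring the alpha median was 0.25. Gnaq, Gna11, Gna14 and Gna15 form the Gq family, which activates phospholipase C beta. The brightest Gnaq clone had -0.26, -0.38, -0.74 and -0.09 on repeats 1 to 4, all lower (mean -0.37 ± 0.28, limma adjusted p = 0.577, 95% interval -0.93 to 0.19). The 3 dimmer Gnaq clones had means of 0.21 ± 0.78, 0.19 ± 0.60 and -0.01 ± 0.59, so that the gene shows no common direction. Gna15, known mainly from blood cells, had -0.03, 0.23, -0.15 and -0.06, a mean of 0.00 ± 0.16 with a 95% interval of -0.54 to 0.54.

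Gna11 had the smallest p of the whole group. Its only clone, titled as weakly similar to a hypothetical worm protein and not as a G protein, had -1.57, -3.47 and -4.11 on repeats 1 to 3 and no spot on repeat 4 (mean -3.05 ± 1.32, n = 3). Its signals were 207.6, 185.0 and 155.5 in PACAP cells and 459.0, 1050 and 1358 in control cells. The 3 arrays were on the same side, with limma's unadjusted p at 0.000405 and its adjusted p at 0.454. These spots covered 26, 21 and 16 pixels, where the median library spot covered 108. In the authors' deposited log2 ratios, centred on each array's median, the same clone reached -7.75 and an adjusted p of 0.000792, and was the only clone of the group to pass there, beside 371 of all 34893 clones tested. Before centring, the deposited ratios stood far above the level of the scanner signals on repeats 1 to 3, which limits the weight of this call. Without spots under 60 pixels it had no value.

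The 2 clones of Gna14, another Gq family member, differed. The brighter had -0.35, -0.06, 0.96 and -0.27 (mean 0.07 ± 0.61), while the dimmer had -0.71, -1.11, -0.69 and -0.47 (mean -0.74 ± 0.27, limma adjusted p = 0.454, unadjusted p = 0.0151). The dimmer clone was lower on 4 of 4 arrays, with control signal above background on 3 and a spot of 25 pixels on repeat 4.

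Gnai1, Gnai2, Gnai3, Gnao1 and Gnaz belong to the Gi family, a main target of RGS proteins, and inhibit adenylyl cyclase. Gnaz, an alpha subunit insensitive to pertussis toxin, had -0.73, -0.83, -0.77 and -0.06 for its brighter clone (mean -0.60 ± 0.36, limma adjusted p = 0.475, unadjusted p = 0.0464). Signals were 3228, 1649, 893.2 and 1862 in PACAP cells and 2365, 856.3, 646.1 and 4319 in control cells. Repeats 1 to 3 lay close together and repeat 4 near 0, and under median centring the mean of this clone was 0.16. The other Gnaz clone, with control signal above background on 1 array, had a mean of 0.10 ± 0.23.

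Gnai2, the common Gi alpha subunit, was read by 4 bright clones, all above background in both channels on 4 arrays. The brightest had -0.42, -0.38, -0.30 and 0.18 (mean -0.23 ± 0.28), and 2 others had means of -0.07 ± 0.37 and -0.50 ± 0.80. The clone at -0.50 was far dimmer on repeat 2, with signals of 111.9 in PACAP and 266.7 in control cells and a log2 ratio of -1.25. On its other arrays the PACAP signal was 1526 to 4879. The dimmest had 0.49, 0.40, 0.67 and 0.39, higher on all 4 arrays with the smallest spread of the 4 (mean 0.49 ± 0.13, limma adjusted p = 0.489, 95% interval -0.05 to 1.02). The intervals of the brightest and the dimmest clone, -0.79 to 0.33 and -0.05 to 1.02, overlap, and the difference between clones was not tested.

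Gnai1 clones likewise lay on both sides of 0. The brightest had -0.15, 0.12, 0.85 and 0.03 (mean 0.21 ± 0.44), and the others had means of -0.45 ± 0.53, 0.36 ± 0.44 and -1.48 ± 1.70. The last of these (unadjusted p = 0.0303, limma adjusted p = 0.455) came from spots of 14, 21, 15 and 11 pixels, with -0.43, -2.07, -3.60 and 0.19 on repeats 1 to 4. Gnai3 had 0.47, 0.25, -1.05 and -0.35 (mean -0.17 ± 0.68). Gnao1, the abundant alpha subunit of neurons and neuroendocrine cells that couples receptors to calcium channels, had 0.06, -0.50, 0.62 and -0.26 (mean -0.02 ± 0.49, 95% interval -0.65 to 0.60).

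Gna12 and Gna13 form a further alpha family. The 2 Gna12 clones had means of -0.31 ± 0.48 and -0.09 ± 0.35. Of 5 Gna13 clones, 4 had positive means, at 0.10 ± 0.53, 0.62 ± 0.65, 0.33 ± 0.57 and 0.12 ± 0.59, and the other had -0.23 ± 0.24. The clone at 0.62 had 0.91, -0.19, 0.43 and 1.33 on repeats 1 to 4 (limma adjusted p = 0.494), with control signal above background on 1 array. The transducins Gnat1 and Gnat2, alpha subunits of rods and cones, had means of -0.18 ± 0.38 and -0.02 ± 0.56 by their brightest clones, and the second Gnat1 clone 0.36 ± 0.84.

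**Figure D3:**
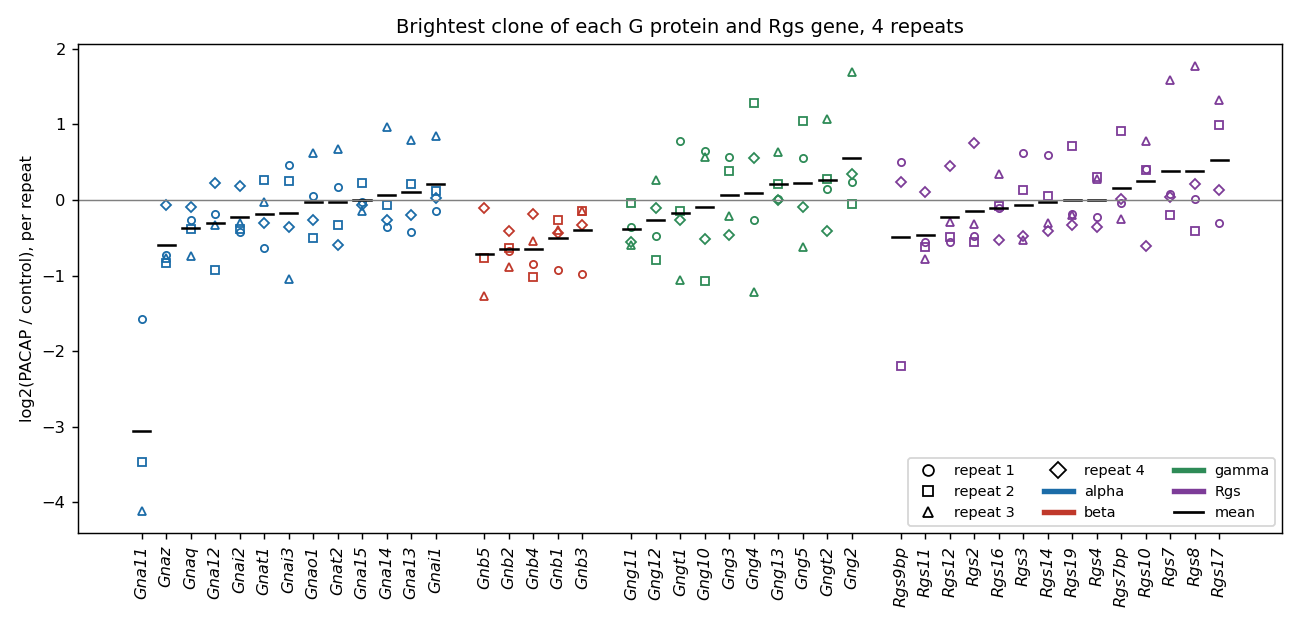
Log2(PACAP / control) on each repeat (vertical axis, 1 symbol per repeat) for the brightest tested clone of each of the 42 genes (horizontal axis), ordered by mean within class; black bars are means. Most genes straddle 0, the 5 beta genes lie below it, and Gna11 stands alone at -3.05.

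Gamma subunits anchor the beta-gamma pair to the membrane through a lipid group. Of 10 gamma genes, 6 had a positive and 4 a negative mean, and 0 clones had an unadjusted p under 0.05, beside 10.4% of all clones. Gng2, a gamma subunit common in neural tissue, had 0.24, -0.05, 1.69 and 0.34 for its brighter clone (mean 0.56 ± 0.77, limma adjusted p = 0.542). The value of repeat 3 rests on a control signal of 24.3, against 88.9 in PACAP cells, and the control spot cleared background on 2 arrays. The other Gng2 clone had a mean of -0.02 ± 0.74. Gng11 had -0.35, -0.04, -0.59 and -0.55, lower on 4 of 4 arrays but with a mean of only -0.38 ± 0.25 (limma adjusted p = 0.563).

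Gng3, a neuronal gamma subunit, had the widest disagreement between clones in its class. The brightest had 0.57, 0.39, -0.21 and -0.46 (mean 0.07 ± 0.49), the first of these from a spot of 17 pixels. A second clone had -0.19, 0.85, 1.43 and 0.65 (mean 0.68 ± 0.67, limma adjusted p = 0.480), and the remaining clone 0.73, -2.83, -1.06 and -0.97 (mean -1.03 ± 1.45, limma adjusted p = 0.491). These 2 clones took opposite signs on 4 of 4 arrays, but the clone at -1.03 had a spot of only 21 pixels on repeat 4.

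The remaining gamma genes stayed near 0 or varied between clones. Gng4, found in neural tissue, had means of 0.09 ± 1.08, 0.00 ± 0.29 and -0.52 ± 0.83 for its 3 clones. Gng5 had 0.22 ± 0.73 and -0.65 ± 0.77, the second clone with 0.21, -0.23, -1.41 and -1.18 and a spot of 11 pixels on repeat 4. Gng12 had -0.27 ± 0.46 and 0.16 ± 0.25, and Gng13, known from taste cells, 0.21 ± 0.30 and 0.17 ± 0.86. Gng10 had 0.65, -1.07, 0.57 and -0.51, repeats that cancel to a mean of -0.09 ± 0.84. The photoreceptor subunits Gngt1 and Gngt2 had -0.17 ± 0.75 and 0.27 ± 0.61.

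Of the 25 Rgs clones tested, 9 had a positive and 16 a negative mean, and 0 had an unadjusted p under 0.05. Among all clones 51.4% were lower and 10.4% had an unadjusted p under 0.05. Rgs2, which acts mainly on Gq alpha subunits, was the best measured. Its brightest clone had signals of 13237, 5619, 2750 and 5986 in PACAP cells and 7175, 1782, 1200 and 7747 in control cells. After normalisation it had -0.48, -0.56, -0.32 and 0.76 (mean -0.15 ± 0.61, limma adjusted p = 0.858), so repeats 1 to 3 were lower and repeat 4 higher. The next brightest had -0.01, -0.22, 0.17 and 0.09, a mean of 0.00 ± 0.17 with a 95% interval of -0.53 to 0.54. A doubling, 1 on this scale, lies outside that interval for this clone after loess. Its mean ranged from -2.23 to 0.65 over the 13 settings run, so the interval does not cover the choice of processing. Under median centring the brightest clone had 0.84 (limma unadjusted p = 0.0173, adjusted p = 0.242), so the sign for Rgs2 depends on the level given to bright spots.

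The other Rgs2 clones were dimmer. The brightest of them had 0.19, -0.82, -0.38 and 0.09 (mean -0.23 ± 0.47). The next had -0.29, -3.71, -1.05 and 0.32 (mean -1.18 ± 1.78, limma adjusted p = 0.5), with spots of 33, 41 and 27 pixels on repeats 2 to 4. A further clone, titled RecQ protein-like, had spots on 2 arrays and was not tested.

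Rgs4, a regulator of Gi and Gq subunits abundant in neurons, had -0.23, 0.30, 0.28 and -0.35 for its brighter clone (mean 0.00 ± 0.34, 95% interval -0.58 to 0.57). Signals of that clone were 1876, 1622, 797.6 and 1378 in PACAP cells and 1105, 454.1, 321.4 and 3935 in control cells. The dimmer clone, whose title names NCK-associated protein 1, had 0.26, -2.79, -1.06 and -0.27 (mean -0.96 ± 1.33, limma adjusted p = 0.492). Rgs16, of the same subfamily, had -0.11, -0.08, 0.34 and -0.53 (mean -0.10 ± 0.35), and Rgs3 had 0.62, 0.13, -0.53 and -0.47 (mean -0.06 ± 0.54). Rgs8, another relative, had 0.01, -0.41, 1.77 and 0.21 for its brightest clone (mean 0.39 ± 0.96). Its other clones had means of -0.09 ± 0.49 and -1.57 ± 2.40 (n = 3), the second at -4.30 on repeat 3 from a spot of 24 pixels.

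Rgs7 and Rgs11 bind Gnb5, and Rgs7bp and Rgs9bp anchor proteins of that kind. Both Rgs7 clones had positive means. The dimmer was higher on all 4 arrays, with 0.10, 0.75, 0.64 and 0.17 (mean 0.41 ± 0.33, limma adjusted p = 0.552) and control signal above background on 2, and the brighter had 0.08, -0.20, 1.59 and 0.04 (mean 0.38 ± 0.82). Rgs11 had -0.56, -0.62, -0.78 and 0.11 (mean -0.46 ± 0.39), with control signal above background on 1 array. Rgs7bp had 0.16 ± 0.51 and -0.32 ± 0.27, the second clone lower on 4 of 4, and Rgs9bp 0.50, -2.19 and 0.24 with no spot on repeat 3 (mean -0.49 ± 1.48, n = 3).

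Rgs17 and Rgs19 act on Gi family subunits, Gnaz among them. Rgs17 had the highest mean of the Rgs class, with -0.30, 0.99, 1.32 and 0.13 (mean 0.53 ± 0.75, limma adjusted p = 0.552), and Rgs19 had -0.18, 0.72, -0.20 and -0.33 (mean 0.00 ± 0.48). In the group of Rgs10, Rgs12 and Rgs14, means by clone were 0.25 ± 0.59 and -0.28 ± 0.89 for Rgs10, -0.22 ± 0.46, 0.17 ± 0.25 and -0.33 ± 0.66 for Rgs12, and -0.02 ± 0.45 for Rgs14. None of these 8 clones had the same sign on all 4 arrays.

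Clones of the same gene were compared by the sign of their means. Of 23 genes with 2 or more tested clones (62 clones), 18 had clones with means on both sides of 0, 3 had only negative and 2 only positive means. Means of 0.00 after rounding were counted by their unrounded sign, which places Rgs2 among the 18 and Rgs4 among the 3. The share over all genes of the array with several clones was not computed, so these counts are not shown to be particular to the group. The span between the clone means of a gene had a median of 0.61, and the standard error of a clone mean in limma a median of 0.28. The differences between clones were not tested. Clones of a gene share their arrays and may match different parts of a transcript, so they are not replicates. Counted over clones with 4 values, 9 of 77 (11.7%) were lower on all 4 arrays and 3 of 77 (3.9%) were higher, against 8.71% lower and 10.1% higher among all clones. The 3 higher ones were clones of Gnai2, Rgs7 and Gng12.

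**Figure D4:**
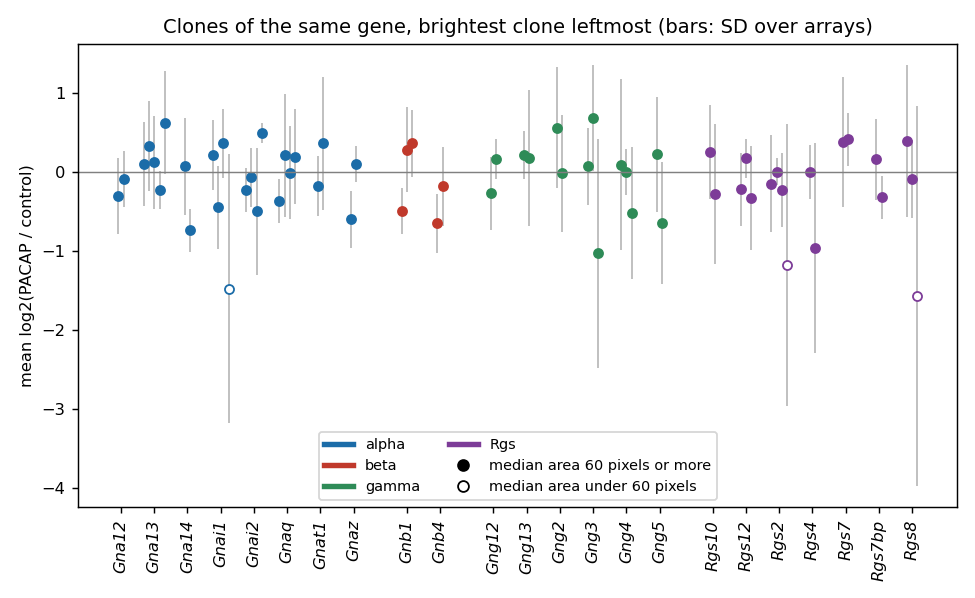
Mean log2(PACAP / control) of each clone (vertical axis, bars are the SD over 4 or 3 arrays) for the 23 genes with several tested clones (horizontal axis), brightest clone leftmost. Open points have a median spot area under 60 pixels. By unrounded means the points of 18 genes fall on both sides of 0, and the open points are the lowest clones of Gnai1, Rgs2 and Rgs8.

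Spot area separated the largest values from the rest. Median area of the group was 116, 108, 112 and 105 pixels on repeats 1 to 4, beside 114, 108, 109 and 95 for the library, and 6, 5, 9 and 18 of the 82 clones had under 60 pixels. Repeat 4 had the smallest spots, most of all in the gamma class, where the median was 86.5 pixels, against 112 for alpha, 106 for beta and 99.5 for Rgs clones. The 6 tested clones with a median area under 60 pixels (of Gna11, Gnai1, Gnb5, Rgs2, Rgs8 and Rgs9bp) all had negative means, with a median of -1.33 and a median SD over arrays of 1.59. A spot not found entered the median area as 0 pixels. Rgs9bp is in this set for that reason: its spots on repeats 1, 2 and 4 covered 70, 92 and 11 pixels. It was higher on 2 of 3 arrays, and its -2.19 came from the spot of 92 pixels. The other 75 had a median of -0.02 and a median SD of 0.49. A mean past 1 in size occurred in 4 of the 6 small-spot clones and in 1 of the other 75, the Gng3 clone at -1.03. Among all clones it occurred in 33.5% of those with small spots and 2.17% of the rest, 4.95% in all.

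The whole array showed the same pattern. Of 3117 clones under 60 pixels, 35.3% had an unadjusted p under 0.05, 35.2% on the lower side, and the median was -0.74. Of 31993 larger ones 7.96% had, 3.66% on the lower side, with a median of 0.03. Within the group, 2 of the 6 clones at an unadjusted p under 0.05 were small-spot clones (Gna11 and a Gnai1 clone). The other 4 were those of Gnb2, Gnb4, Gnaz and Gna14, with median areas of 118, 124, 122 and 104 pixels. The part of spot area in the lower ratios was not tested beyond these values.

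**Figure D5:**
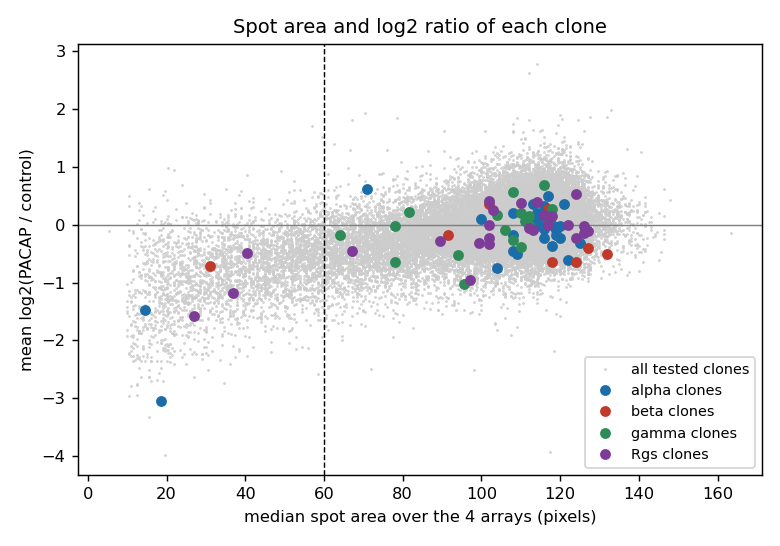
Mean log2(PACAP / control) of each clone (vertical axis) against its median spot area over the 4 arrays in pixels (horizontal axis), with a spot not found counted as 0. Grey points are all tested clones, coloured points the 81 clones of the 4 classes, and the dashed line marks 60 pixels. The 6 coloured points left of the line all lie below 0, down to -3.05.

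Other genes from the PACAP receptor to the effectors of G proteins gave no adjusted call either. Of 52 listed symbols, some of them older names of the same gene, 37 were tested by their brightest clone, and 0 passed the adjusted threshold in limma. At an unadjusted p under 0.05, 1 was higher and 5 were lower, a larger share than the 8.86% of all genes in either direction. That difference was not tested, and the median of the 37 was 0.00. The lower ones of smallest p were phosducin (Pdc), which binds free beta-gamma subunits, at -0.87 ± 0.36, and the adenylyl cyclase Adcy6, which Gi subunits inhibit, at -0.68 ± 0.31. Both were lower on 4 of 4 arrays (limma adjusted p = 0.454). The higher one was Prkar2a, a regulatory subunit of the cyclic AMP-dependent kinase, at 0.65 ± 0.34 (adjusted p = 0.457). The next by p on the higher side, the related subunit Prkar1b, had 0.58 ± 0.39 and did not reach that level (unadjusted p = 0.0537, adjusted p = 0.480). Both had positive values on 4 of 4 arrays, with control signal above background on only 1. Adcyap1r1, the PACAP receptor, had 0.15 ± 0.65 (adjusted p = 0.857). The remaining lower genes at an unadjusted p under 0.05 were Grk6, Prkacb and Adcy7. Grk6, a receptor kinase, had -1.63 ± 1.85 with small spots (median 44 pixels). Prkacb had -0.57 ± 0.12 and Adcy7 -0.69 ± 0.54, both lower on 4 of 4 arrays (limma adjusted p = 0.467).

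Among markers of further adrenal cell types, 0 genes were found at an unadjusted p under 0.05, out of 8 adrenal cortex, 6 fibroblast, 5 endothelial, 7 leukocyte, 2 erythrocyte and 5 Schwann and sustentacular genes. With 8.86% of all genes at that level, a count of 0 in lists this small says little about the cell mix. The median log2 ratios of these lists were -0.29, -0.18, 0.00, 0.19, -0.31 and 0.09 in that order, and the 14 chromaffin markers had 0.21. Of those 14, 10 had a positive and 4 a negative mean. At an unadjusted p under 0.05, 3 were higher, namely Scg2 at 1.84 ± 0.84, Penk at 0.86 ± 0.35 and Chgb at 0.71 ± 0.56 (limma adjusted p = 0.454 for Scg2 and Penk and 0.467 for Chgb). The share of all genes at that level, in either direction, was 8.86%. Scg2 had control signal above background on 2 arrays only. The 4 negative means were those of Chga (-0.50, lower on 4 of 4 arrays), Ddc (-0.36), Slc18a1 (-0.31) and Gata3 (-0.14). A lower ratio in these bulk samples cannot distinguish fewer cells of a type from less RNA per cell.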

How the data were processed

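Total RNA of PACAP-treated (Cy5) and control (Cy3) bovine chromaffin cells was compared on 4 arrays of 37632 spots. The gene group and the gene lists were taken up with earlier results of these data known, while the rule for members used the annotation only. Per the file headers, the deposited scanner files give for each spot and dye a mean intensity, from which local background had been subtracted, a spot area in pixels (another quantity), a quality score given as a fraction and a calibrated Cy5 over Cy3 ratio. The deposited value table of the authors gives log2 ratios, with medians of 4.67, 5.51, 4.24 and -0.38 on repeats 1 to 4 before centring. Median library signals were 402.7, 235.5, 99.9 and 248.2 in Cy5, beside 306.4, 206.4, 129.4 and 548.0 in Cy3. On repeats 1 to 3 the deposited ratios thus stood far above the level of these signals. Results in them are therefore not an equal alternative to the other settings. To recompute the deposited ratios, local background was subtracted again from the mean intensities, which were then floored at 1. The Cy5 over Cy3 ratio was then divided by the calibration factor of the array. Nearly all entries matched the deposited values by this formula, as counted below. How far the second subtraction sets their level was not tested further. The scanner software and any other step are not given in the sources used here. Annotation entries were joined to spots by plate position, and kept where the median difference between the deposited and recomputed log2 ratio was under 0.1 (35825 of 35873 entries). On all 4 arrays, 75 of the 82 spots were within that limit.

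Intensities were floored at 1, normalised by loess within each array (span 0.3, 4 iterations) and tested against 0 with limma 3.58.1 in R 4.3.3. A clone was tested when its signal in either dye was above background on at least 3 arrays, and spots without area had no value. Without this filter on dim clones, 35516 clones were tested. P-values are two-sided and were adjusted by the Benjamini-Hochberg method over 35110 clones. A gene is represented by its brightest tested clone. The procedure was tested on simulated data. Median library signals ranged over the arrays between 99.9 and 402.7 in Cy5 and between 129.4 and 548.0 in Cy3, and 46.0% to 98.3% of spots were above background in Cy3. Named were a list of subunits and Rgs genes likely in this tissue, in each class the 3 clones of smallest p in each direction, and every gene with several clones. Genes outside these were added so that each gene of the group has a value. Alternatives were other normalisations, the deposited ratios, filters on dim or small spots, trend and robust moderation, the mean over clones and leaving out each array. Leaving out Gna11 and the 2 Rgs-binding proteins was chosen after seeing the data. No sequence of the clones was used here.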

Additional observations from a re-analysis of the deposited data

Results flagged for a closer look

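The values of the 4 arrays were examined for 77 clones with 4 values and for the 4 class medians, 81 in all, for an array far from the other 3 (the gap to its nearest neighbour relative to the whole range). In 4 clones and no class median an array stood apart. Chance alone gives this in about 1 of 20 such groups. The brighter Gnaz clone had -0.06 on repeat 4, whereas the others lay between -0.83 and -0.73. The dimmer Gng12 clone had 0.53 on repeat 2, with the others at 0.03 to 0.04. Rgs19 had 0.72 on repeat 2, with the others at -0.33 to -0.18. The brighter Rgs7 clone had 1.59 on repeat 3, with the others at -0.20 to 0.08, on a spot with signals of 140.7 in PACAP cells and 65.7 in control cells. The causes were not tested.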

How the results depend on the processing

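The treated and control RNA share an array, so each log2 ratio is already the paired difference within a repeat. The test of this single group of ratios against 0 thus used the pairing throughout. Adjusted calls stayed at 0 for the group in every setting run except the deposited ratios, where there was 1 (Gna11, -7.75) beside 371 among all clones, and where the median of all clones was -0.28. Clones of the group at an unadjusted p under 0.05 numbered 10 under median centring, 15 in the deposited ratios, 0 with trend and robust moderation and 2 to 10 with an array left out, and clones of the whole array 6099 under median centring, 4587 in the deposited ratios, 2345 with both channels above background, 912 with moderation and 1834 to 5149 with an array left out. The alpha median was 0.25 under median centring, -0.84 in the deposited ratios and -0.08 over the mean of all clones, the beta median 0.09, -3.22 and -0.41 in that order. The gamma median was -0.09 over the mean of all clones, and the Rgs median 0.14 under median centring and -0.07 to 0.11 with an array left out.

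Signs of single genes, by their brightest clones and none past the threshold, turned as follows. Under median centring: Gnai2 0.51, Gnao1 0.10, Gnaq 0.20, Gnat1 0.27, Gnat2 0.45, Gnaz 0.16, Gnb1 0.21, Gnb2 0.09, Gnb3 0.39, Rgs12 0.21, Rgs14 0.47, Rgs16 0.07, Rgs2 0.84 and Rgs7bp -0.15. In the deposited ratios: Gnai3 0.13, Gnao1 0.49, Gng10 0.65, Gng12 0.22, Gng3 -2.35, Gng5 -1.29, Rgs16 0.33, Rgs3 0.08 and Rgs7bp -0.13. With print-tip loess: Gna13 -0.16, Gnai3 0.04, Gng10 0.24, Gng3 -0.02, Gng4 -0.10, Rgs14 0.18, Rgs2 0.04 and Rgs3 0.09. Scaling between arrays turned Gna13 (-0.03) and Gna14 (-0.05), and leaving out small spots turned Gng3 (-0.10). With each array left out in turn, the sign turned for 17 genes whose mean was not 0.00 after rounding, over these ranges: Gna13 -0.14 to 0.27, Gna14 -0.23 to 0.21, Gnai3 -0.38 to 0.12, Gnao1 -0.24 to 0.14, Gnat2 -0.25 to 0.18, Gng10 -0.33 to 0.24, Gng3 -0.10 to 0.25, Gng4 -0.31 to 0.53, Gng5 -0.05 to 0.51, Gngt1 -0.49 to 0.12, Rgs14 -0.22 to 0.11, Rgs16 -0.24 to 0.05, Rgs3 -0.29 to 0.09, Rgs7 -0.03 to 0.57, Rgs7bp -0.09 to 0.29, Rgs8 -0.07 to 0.66 and Rgs9bp -0.98 to 0.37. Genes with a mean of 0.00 took both signs: Gna15 -0.08 to 0.04, Rgs19 -0.24 to 0.11 and Rgs4 -0.10 to 0.11 with an array left out, and 0.25, -0.05 and 0.59 in that order under median centring. Beyond fewer arrays or spots, the cause was not tested. Control signal near background limits repeats 2 and 3.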
